A study of Homo sapiens with 3 samples.

Results

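The RAB small GTPases, regulators of traffic between the membranes of the cell, were followed through the transcriptome of HEK293T cells. A gene was taken as a member if it is protein-coding and its symbol consists of RAB, a number and at most 1 letter, and 63 of the 61193 genes in the data, 19926 of them protein-coding, met this rule. No measured value entered this rule, though it was set with earlier results of these data known. In the GENCODE annotation of the GRCh38 genome (hg38), 57 members lie on autosomes and 6 on the X chromosome.

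The data come from a study that mapped i-motifs, structures that C-rich DNA can fold into, and that measured gene expression in the same cell line. HEK293T cells descend from human embryonic kidney and express the large T antigen of SV40. The cells were untreated and grown in DMEM with serum, and 3 independent replicates were collected 24 h after seeding. All 3 replicates belong to 1 condition, so no groups were compared, and an exact paired permutation test of 2 genes over 3 replicates could not go below a two-sided p of 0.25. No p is therefore given.

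RAB proteins switch between a GTP-bound form, which sits on a membrane and recruits effectors, and a GDP-bound form, which a GDP dissociation inhibitor keeps soluble. Exchange factors load GTP, GTPase-activating proteins speed its hydrolysis, and a geranylgeranyl tail, attached with the help of an escort protein, anchors the GTPase in the bilayer. Each RAB marks its own compartment, such as RAB5 the early endosome and RAB7 the late endosome, and many compartments are served by close paralogs from separate genes.

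RNA was read with the QuantSeq 3′ method, which primes at the poly(A) tail, so each read comes from near the end of its transcript. The values are counts of reads per transcript and TPM, the count divided by transcript length and scaled so that each library sums to 1000000. The libraries held 7019253, 6262175 and 8521624 counts. A count of 0 allows up to 3 counts, which equals 0.427, 0.479 and 0.352 CPM (counts per 1000000) in replicates 1, 2 and 3. Such limits cover counting error only, since copies made by PCR were not marked as such. Replicate 3 stood apart in that genes of the mitochondrial genome took 44.2% of its TPM, against 22.8% in replicate 1 and 15.4% in replicate 2. Of 10 genes described in HEK293T cells, 5 had a mean of at least 1 TPM (CDH2 at 25.4 ± 4.43 and PAX2 at 8.96 ± 3.24 TPM, SD, n = 3), while PAX8, KRT18, NEFM and NEFL were at 0. Of 10 genes of other cell types, COL1A1 alone reached this level, at 24.8 ± 0.330 TPM, and PTPRC, CD3E, CDH5, ALB, NPHS1, SLC34A1 and UMOD were at 0. The share of the 3′ end in a single listed transcript, described below, differed among these genes. It was 0% for CD3E, 0.333% for UMOD, 2.67% for SLC34A1, 5.67% for CDH5 and 24% for ALB. For PTPRC it was 64.3% and for NPHS1 100%. Among the HEK293T genes at 0, it was 0% for PAX8 and NEFM, 2% for KRT18 and 100% for NEFL. Whether RNA was absent where counts were 0 was not tested.

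Since the libraries start at the poly(A) tail, the sequence that ends each RAB mRNA frames the counts below. A poly(A) signal, the hexamer that directs cleavage of the pre-mRNA, was sought as AATAAA or else ATTAAA in the last 50 bases of the canonical transcript, on the strand of the gene. It was found in 47 of 63 members (AATAAA in 36 and ATTAAA in 11), or 74.6%, against 77.3% of protein-coding genes. The following 30-base stretches from the 3′ UTR are printed 5′ to 3′ on the strand of the gene, with the hexamer in capitals. They show 4 highly counted members and then 4 members with few or no counts.

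RAB7A, chr3:128814762-128814791, plus strand: gaacgcaatgccAATAAAattgaacaagaa
RAB5A, chr3:19985142-19985171, plus strand: tgctcaggttggAATAAAgtggtataaaaa
RAB32, chr6:146554924-146554953, plus strand: tgctggggtggtAATAAAatgttacctcca
RAB14, chr9:121178139-121178168, minus strand: taactgttttggAATAAAaaccttggtggt
RAB1A, chr2:65086861-65086890, minus strand: tgaaaatttcacAATAAAaatcatagttta
RAB18, chr10:27542201-27542230, plus strand: cttatgtgagccAATAAAttccttttttgt
RAB27A, chr15:55202975-55203004, minus strand: caattaagctgtAATAAAaaagtggtctag
RAB34, chr17:28714290-28714319, minus strand: tgtgccttatgcATTAAAatttctttgtta

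The hexamer did not set the counted members apart. It was found in 22 of the 33 members with a mean of at least 1 TPM and in 14 of the 15 members with no count at all.

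Of the 63 RAB genes, 33 had a mean of at least 1 TPM over the replicates and are called expressed here, which is 52.4% of the family against 38.2% of protein-coding genes. Of these, 31 were at 1 TPM or above in every replicate. With the quartiles of all expressed genes as limits (2.40 and 24.1 TPM), 16 members were high, 15 medium and 2 low. A further 23 members had at most 3 counts in every replicate, as did 50.9% of protein-coding genes, and 15 of them had 0 counts throughout, as did 36.5% of protein-coding genes. The remaining 7 lay between these limits. The median member was at 1.54, 2.75 and 1.20 TPM in replicates 1, 2 and 3, and the median of the means was 1.89 TPM, against 0.195 TPM over all protein-coding genes.

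All members together took 36955, 34898 and 36008 counts, or 0.502% ± 0.0706 of a library (SD, n = 3). Their summed level was 2578, 2881 and 1788 TPM, lowest in replicate 3. When genes of the mitochondrial genome were left out and TPM rescaled, the sums were 3339, 3404 and 3206 TPM. The spread thus went from an SD of 564 around 2416 TPM to an SD of 101 around 3316 TPM. The 5 highest members held 43.3%, 44.2% and 44.8% of the summed TPM, a share that differed little between replicates.

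**Figure D1:**
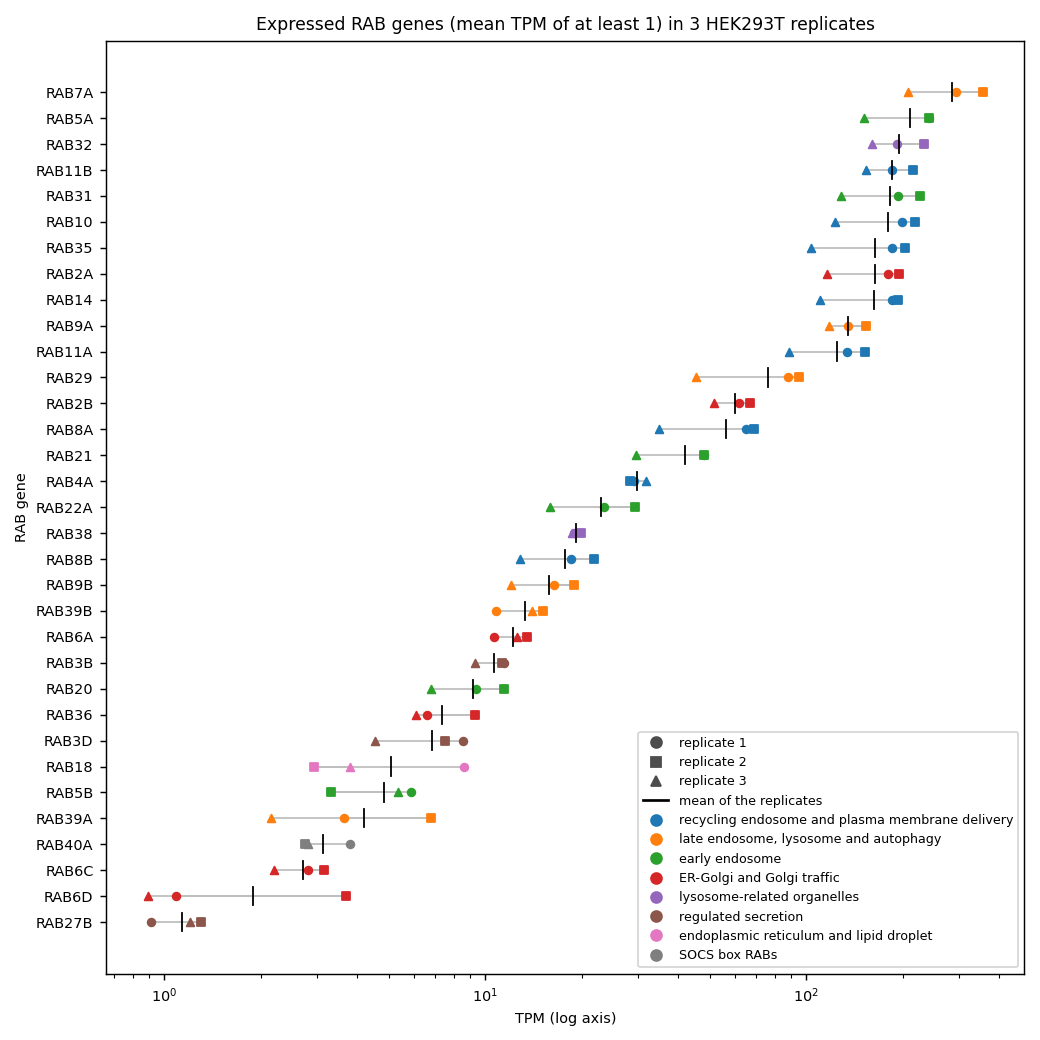
TPM (log axis) of the 33 expressed RAB genes in each of 3 HEK293T replicates (circle, square and triangle for replicates 1, 2 and 3; black bar, mean; colour, role), in order of the mean. From RAB7A at 285 TPM to RAB27B at 1.14 TPM, neighbours in the order overlap on this scale, and replicate 3 is the lowest for most of the upper members.

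The family was led by RAB7A (ENSG00000075785, chr3:128693669-128825942), which directs late endosomes to fuse with lysosomes. It had 2981, 3051 and 3097 counts, or 293, 355 and 207 TPM, a mean of 285 ± 74.2 TPM (SD, n = 3). RAB5A (ENSG00000144566, chr3:19947097-19985175), which drives fusion of early endosomes, followed at 241, 241 and 152 TPM, a mean of 211 ± 51.5. Its lowest replicate was below the highest of RAB32, so the 2 levels overlap, and RAB7A and RAB5A overlap as well in TPM, though not when mitochondrial genes are left out. Within each replicate, RAB7A was above RAB5A. RAB32 (ENSG00000118508, chr6:146543833-146554953), known for traffic to melanosomes and other lysosome-related organelles, was at 191, 232 and 160 TPM, a mean of 195 ± 36.4.

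The next 7 members lay within a narrow band. RAB11B (ENSG00000185236, chr19:8389981-8404434), of the recycling endosome, was at 186, 215 and 154 TPM. RAB31 (ENSG00000168461, chr18:9708275-9862551), which acts between the trans-Golgi and endosomes, was at 193, 226 and 129 TPM. RAB10 (ENSG00000084733, chr2:26034084-26137454), known for insertion of the glucose transporter GLUT4 into the plasma membrane, was at 198, 219 and 123 TPM. These 3 levels overlap one another and that of RAB32. RAB35 (ENSG00000111737, chr12:120095099-120117502), of fast recycling and cytokinesis, was at 185, 204 and 103 TPM. RAB2A (ENSG00000104388, chr8:60516936-60623644), of transport between the endoplasmic reticulum and the Golgi, was at 180, 195 and 116 TPM. RAB14 (ENSG00000119396, chr9:121178133-121223014), which links Golgi and endosomes, was at 185, 194 and 111 TPM. They too overlap, with means of 164 ± 53.5, 164 ± 42.2 and 163 ± 45.6 TPM. RAB9A (ENSG00000123595, chrX:13689128-13710504), which returns receptors from late endosomes to the trans-Golgi, closed the first 10 at 135, 154 and 117 TPM.

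Of all pairs of expressed members, 431 of 528 were set apart, meaning that the lowest replicate of one was above the highest of the other in TPM. By contrast, 0 of the 32 pairs of neighbours in the order were set apart, and 9 of them kept their order in every replicate. Without mitochondrial genes in the scaling, 470 of the 528 pairs and 5 of the neighbouring pairs were set apart. Of the latter, RAB7A stood above RAB5A (lowest 371 against highest 312 TPM on that scale), RAB11A above RAB29, RAB8A above RAB21, RAB8B above RAB9B and RAB20 above RAB36. The overlap of neighbours thus depends in part on the scaling. The order within a replicate does not, since the rescaling multiplies every member of a library by the same factor. Across the expressed members, 11 were at 100 TPM or more, 12 between 10 and 100 and 10 between 1 and 10.

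The order also depends on the division by length, which lowers long transcripts where reads come from the 3′ end only. Without it, RAB31 rose from rank 5 to rank 1 and RAB14 from 9 to 2, with transcripts of 3919 and 4149 bases. RAB21, of endocytosis of integrins, whose canonical transcript has 15558 bases, went from rank 15 to 7. RAB32, at 1065 bases, went from 3 to 13. RAB4A, counted on a transcript of 431 bases, went from 16 to 26.

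Grouped by role, the RABs of the endosomes and of delivery to the plasma membrane carried most of the signal. The 13 RABs of recycling endosomes and plasma membrane delivery summed to 921 ± 232 TPM (SD, n = 3), 38.1% of the members' TPM, and 8 of them were expressed. The 9 RABs of late endosomes, lysosomes and autophagy summed to 530 ± 124 TPM, with 6 expressed, and the 8 of the early endosome to 473 ± 118 TPM, with 6 expressed. RAB32 and RAB38, of lysosome-related organelles, together made 214 ± 37.0 TPM. By counts, with no division by length, the order of these groups changed: the early endosome held 27.1% of the members' counts and the late endosome group 17.0%, while the share of the lysosome-related group was 3.17% of counts against 8.85% of TPM. The recycling group stayed first with 38.6% of counts. These roles were written from general knowledge of the family, and several RABs act at more than 1 site.

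The 15 RABs of the endoplasmic reticulum to Golgi route and of the Golgi summed to 249 ± 52.9 TPM, 10.3% of the family, with 6 expressed and 7 at or under 3 counts in every replicate. RAB2A and RAB2B made up most of it. RAB1A and RAB1B, which act at the same step, had 0 counts and 5, 5 and 7 counts. The 9 RABs of regulated secretion summed to 19.1 ± 3.28 TPM, 0.792% of the family's TPM and 2.40% of its counts. Among them RAB3B, of synaptic and endocrine vesicles, was at 10.7 ± 1.20 TPM, while RAB3A, RAB26, RAB27A and RAB37 had no counts. None of the 3 RABs linked to the cilium (RAB23, RAB28 and RAB34) reached a mean of 1 TPM, although RAB28 was at 1.54, 1.09 and 0 TPM from 5, 3 and 0 counts and had a mean of 1.10 TPM without mitochondrial genes. Their sum was 1.26 ± 0.583 TPM. Of the 3 RABs with a SOCS box, which recruits a ubiquitin ligase, RAB40A was expressed at 3.12 ± 0.593 TPM. RAB1A, RAB3A, RAB26, RAB27A, RAB34 and RAB37, all at 0, have 3′ ends mostly shared between listed transcripts, as described below. RAB19, of the Golgi group and also at 0, does not. Whether these zeros reflect absent RNA was not tested, so the sums of these groups describe counted reads only.

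**Figure D2:**
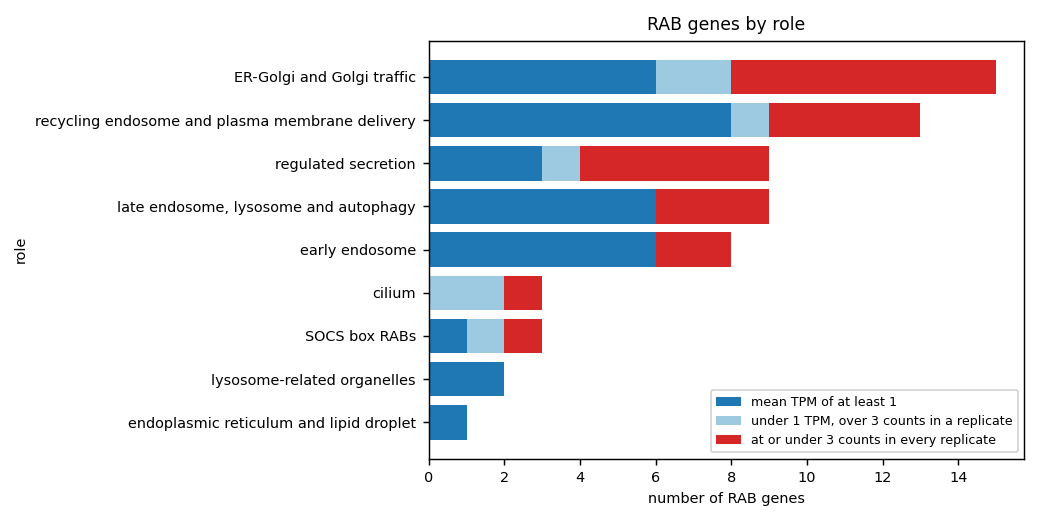
Number of RAB genes in each role (horizontal bars from 0), split into those with a mean of at least 1 TPM, those with at most 3 counts in every replicate and those between. The recycling group holds 13 genes with 8 expressed and the ER-Golgi group 15 with 6 expressed.

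Paralogs of the same number were compared next, in 14 families with 28 pairs. In 14 of these pairs a member was at or under 3 counts in every replicate, 11 times as the lower member at 0, so that an order was fixed by the limit of detection and none is drawn. In the other 14 pairs both members had more counts, and 13 did not overlap in TPM, the exception being RAB6C with RAB6D. RAB5A exceeded RAB5B (5.90, 3.30 and 5.33 TPM) by 43.6-fold in mean TPM, and RAB5C had no counts. Of the RAB5B level, the canonical RAB5B-201 of 5273 bases made up 0.710, 1.73 and 0.825 TPM. RAB5B-208, of 665 bases and annotated with a retained intron, made up 3.31, 1.57 and 4.51 TPM. The ratio is therefore not one of canonical transcripts alone. RAB9A exceeded RAB9B (15.8 ± 3.46 TPM, SD, n = 3, from 280, 273 and 303 counts) by 8.59-fold. RAB2A exceeded RAB2B (61.8, 67.0 and 51.8 TPM) by 2.72-fold. Among the 14 pairs, the ratio differed by over 1.5 times between TPM and CPM in 6, RAB9 among them, where it was 4.67 in CPM. For RAB4A with RAB4B, also among the 14, no ratio was computed, since RAB4B had a mean of 1.67 counts.

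Other pairs differed by smaller ratios than RAB5 or RAB9. RAB8A, of exocytosis and ciliogenesis, was at 64.7, 68.8 and 34.8 TPM, and RAB8B at 18.5, 21.8 and 12.8 TPM, a ratio of 3.17, or 1.66 in CPM. RAB39B, an X-linked gene of endolysosomal traffic, was at 10.8, 15.1 and 14.0 TPM and RAB39A at 3.62, 6.78 and 2.15 TPM, a ratio of 3.18, or 6.02 in CPM. RAB3B was at 11.4, 11.3 and 9.28 TPM and RAB3D at 8.52, 7.50 and 4.53 TPM, a ratio of 1.56, or 4.76 in CPM. RAB40A was at 3.80, 2.75 and 2.80 TPM and RAB40B at 1.15, 0.545 and 1.14 TPM, a ratio of 3.30.

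The leader was the same in TPM and in CPM in 13 families, of which RAB1 and RAB33 rest on at most 7 counts in a replicate. The exception was RAB11, whose members organise the recycling endosome. RAB11B exceeded RAB11A (134, 152 and 88.1 TPM) by 1.48-fold in TPM, higher in 3 of 3 replicates and with a margin of 154 against 152 TPM between its lowest and the highest of RAB11A. In CPM, RAB11B was at 0.494 of RAB11A, whose canonical transcript has 4895 bases against 1590. The direction within this pair therefore rests on the division by length.

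Among the remaining families, RAB7B, RAB27A, RAB1A, RAB3A and RAB6B had 0 counts in every replicate. RAB27B, of secretory granules, was at 0.913, 1.30 and 1.20 TPM. RAB4A, of rapid recycling, was at 29.1, 28.3 and 31.7 TPM with 57, 47 and 91 counts, and RAB4B had 0, 1 and 4 counts. RAB3C had 22, 15 and 21 counts, or 0.448 ± 0.0961 TPM (SD, n = 3). RAB33A had 0, 2 and 5 counts, RAB33B 1, 0 and 2, and RAB40C 1, 0 and 0, and these stood too low for an order between them.

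RAB18, of lipid droplets and the endoplasmic reticulum, was at 8.57, 2.94 and 3.80 TPM, from 15, 4 and 9 counts. The gene (ENSG00000099246) lies at chr10:27504174-27543207. Its counts lay to 92.9% on RAB18-205, listed with 355 bases and annotated without a coding sequence, and the rest on another transcript, while the canonical transcript of 4886 bases had none. Counted without length, RAB18 ranked 36 of 63 rather than 27.

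Many members list several transcripts that share their 3′ end. For each gene, the final 300 exonic bases of its canonical transcript were taken, and the share that lies in exactly 1 transcript listed in the deposited tables was computed. In RAB7A this share was 100%, as it was in 36 of the 63 members (57.1%, against 39.3% of protein-coding genes). In RAB1A the 3′ end is shared by RAB1A-203 and RAB1A-204, in RAB5C by RAB5C-201 and RAB5C-202, and 16 members (25.4%, against 40.7% of protein-coding genes) had a share of 0%. Ends in a single transcript were thus more frequent in the family than over all protein-coding genes, and their part in the share of expressed members was not tested.

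**Figure D3:**
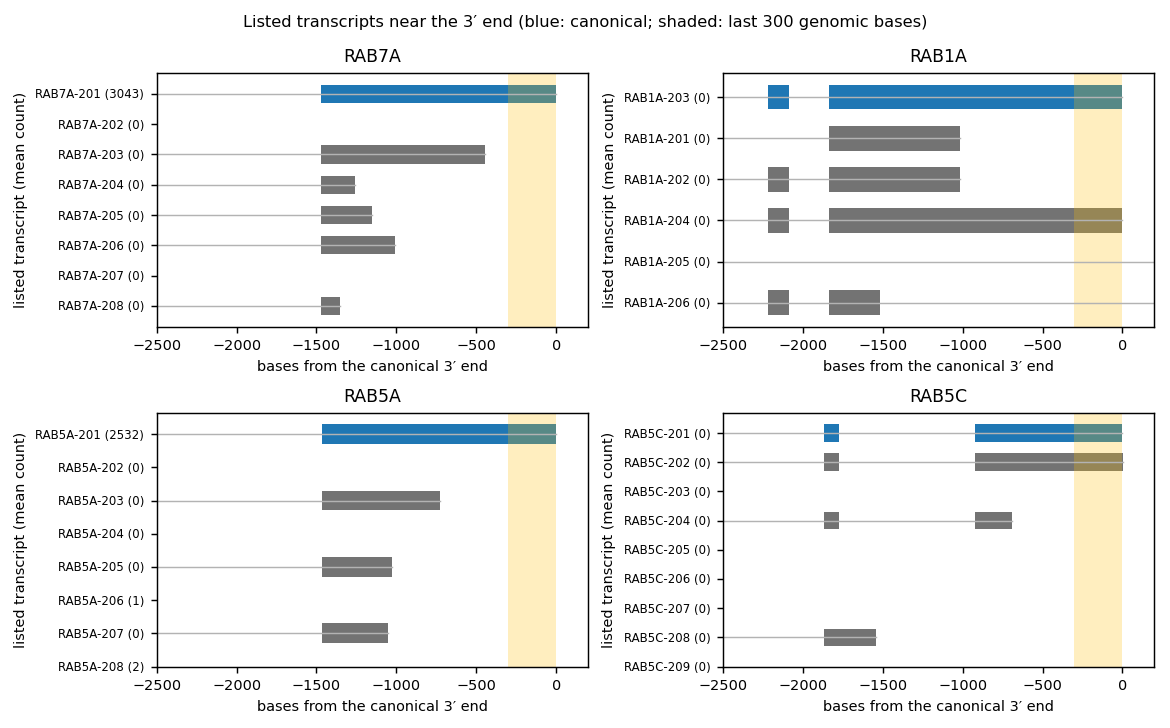
Listed transcripts of RAB7A, RAB1A, RAB5A and RAB5C near the canonical 3′ end (horizontal axis, bases from that end; bars, exons; blue, canonical; shaded, last 300 bases; in brackets, mean count of 3 replicates). The counts of RAB7A and RAB5A lie on the transcript that alone reaches the end, and RAB1A and RAB5C, where 2 transcripts end together, have none.

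Members whose 3′ end belongs to a single listed transcript had more counts. Of 37 members with a share of at least 50%, 29 were expressed (78.4%), against 53% of protein-coding genes with such an end. The median count was 228 in these members and 20.7 in those genes. Of 26 members with a smaller share, 4 were expressed (15.4%), against 27.2% of such protein-coding genes, with median counts of 0.167 and 0.333. Members with a share of at least 50% held 97.3% of all counts of the family, against 88.3% over protein-coding genes. Of the 15 members at 0, 13 had a smaller share, as did 5031 of the 7271 protein-coding genes at 0. Across the 63 members, log2(count + 1) and this share had a Pearson coefficient of 0.677 and a Spearman coefficient of 0.670, and across 19926 protein-coding genes 0.387 and 0.318. These coefficients are across genes of the same libraries and are descriptions only.

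**Figure D4:**
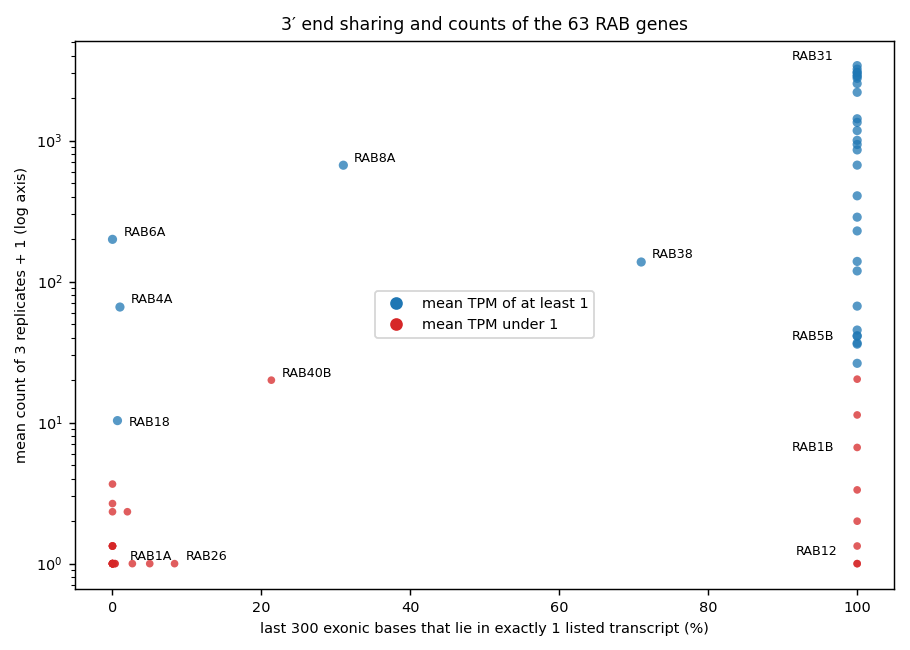
Mean count of 3 replicates plus 1 (log axis) against the share of the last 300 exonic bases in exactly 1 listed transcript, for the 63 RAB genes (blue, mean of at least 1 TPM; red, below). Expressed genes gather at 100%, and under 50% the 4 expressed genes are RAB8A, RAB4A, RAB6A and RAB18.

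The 4 expressed members with a shared end were counted in different ways. RAB8A (31% of its end single) kept 97.4% of its counts on the canonical transcript. RAB6A, of retrograde traffic through the Golgi, had a share of 0%, and 94.5% of its 155, 168 and 272 counts lay on RAB6A-201, which is not the canonical one. RAB4A had a share of 1%, and 99.5% of its counts lay on RAB4A-204, whose own end was 78% single. RAB4A-204 is annotated without a coding sequence, and the canonical transcript of RAB4A had no counts. For RAB40A, outside these 4, the canonical end was 100% single, but 84.2% of its counts lay on RAB40A-202, whose end was 0% single. Taken on the most counted transcript, 29 expressed members again had a share of at least 50%. In RAB4A and RAB18 the counted transcript is far shorter than the canonical one, so dividing by its length gives a higher TPM for the same count.

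The reverse also occurred. RAB12, of recycling, and RAB19, of the Golgi, had no counts although their annotated ends were single. RAB33A, RAB33B and RAB44 had such ends and at most 5 counts in any replicate. The annotation used here is GENCODE v44, and the deposited lengths equal its lengths for the canonical transcripts of 51 members. For RAB19, RAB36, RAB42 and RAB6D the length differs by over 300 bases (RAB19 has 952 bases as deposited and 2661 in v44), so the end described for them may not be the end that was counted. The part that read assignment plays in the zeros was not tested.

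Where counts exist, they mostly sit on 1 transcript. Of 48 members with any count, the most counted transcript was the canonical one in 36. Among the 33 expressed members it was canonical in 29, and 31 had at least 90% of their counts on 1 transcript, the exceptions being RAB5B (67.5% on RAB5B-201) and RAB40A (84.2% on RAB40A-202). Of the 10 members with a single listed transcript, 8 were expressed, RAB32, RAB3B and RAB9B among them. The counts of such members could lie on no other transcript. The same counts of genes were not made over all protein-coding genes, so they are not read as a trait of the family.

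Near-identical copies limit a few members. RAB6C, a retrogene derived from RAB6A, and RAB6D share 69.0% and 60.6% of their 31-base words with other genes, mostly with each other, and RAB6A shares 35.2%. RAB6C had 39, 37 and 45 counts and RAB6D 15, 43 and 18, so the counts of these 3 genes are uncertain. RAB43 shares 90.9% of its words, chiefly with the read-through gene ISY1-RAB43, and RAB4B shares 100%, chiefly with MIA-RAB4B. RAB24 shares 57.6% with its neighbour MXD3, while RAB13 shares 57.6% with ENSG00000285641 and RAB5C 46.0%, chiefly with ENSG00000267261, in both cases outside the last 300 bases. RAB40A shares 31.2% with RAB40AL, which had no counts. Of the words in the last 300 bases of RAB8A, 65.6% occur in other genes, chiefly HSH2D. Of 20 RAB pseudogenes, RAB28P5 had 18, 6 and 48 counts, RAB43P1 had 0, 2 and 0, and the other 18 had none.

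The ends of 3 members lie wholly within exons on the opposite strand, and the sources used here do not say whether counting used strand. RAB1B overlaps ENSG00000254452, a long noncoding RNA with 0 counts, and RAB4B overlaps ENSG00000282951, with 4, 0 and 0. The end of RAB3D is overlapped for 70.7% by another noncoding RNA with 0 counts, and that of RAB1A for 50.3% by CEP68, a centrosomal gene with 31, 30 and 31 counts. RAB23, a negative regulator of Hedgehog signalling, had 6, 4 and 21 counts, and its end overlaps BAG2, a chaperone regulator with 1489, 1341 and 909 counts. The counts of RAB23 and BAG2 cannot be told apart from each other where they overlap if strand was not used.

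Replicates of the family followed each other closely. Across the 63 members the Pearson coefficients of log2(TPM + 1) between replicates were 0.994, 0.993 and 0.992. For the 32 members with a mean count of at least 20, the median coefficient of variation in TPM was 25.5%, from 3.32% to 82.8%, while counting error alone would give 3.87%. The median fell to 10.1% when genes of the mitochondrial genome were left out of the scaling. In TPM the 3 most variable were RAB6D at 82.8% (1.09, 3.70 and 0.890 TPM, high in replicate 2), RAB39A at 56.6% (high in replicate 2) and RAB29 at 35.5% (87.9, 95.3 and 45.3 TPM, low in replicate 3). Without mitochondrial genes RAB29 was at 18.1%, and RAB5B at 41.0% and RAB39A at 39.9% followed RAB6D.

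Replicate 3 was compared with the mean of the others for the 25 members with at least 50 counts in each library. On the TPM scale 23 of 25 (92%) were lower, with a median log2 ratio of -0.65. Over 4678 nuclear protein-coding genes 89.3% were lower, a share near that of the members, with a median of -0.57. Without mitochondrial genes 16 of 25 (64%) were lower, with a median of -0.11, against 53.4% and -0.03 for all. RAB29, a GTPase at the Golgi and lysosome that recruits the kinase LRRK2, remained the lowest at -0.48 on that scale, and RAB39B was the highest at 0.65, followed by RAB6A at 0.60 and RAB38 at 0.48. With 1 library on one side, these ratios have no replicate check.

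**Figure D5:**
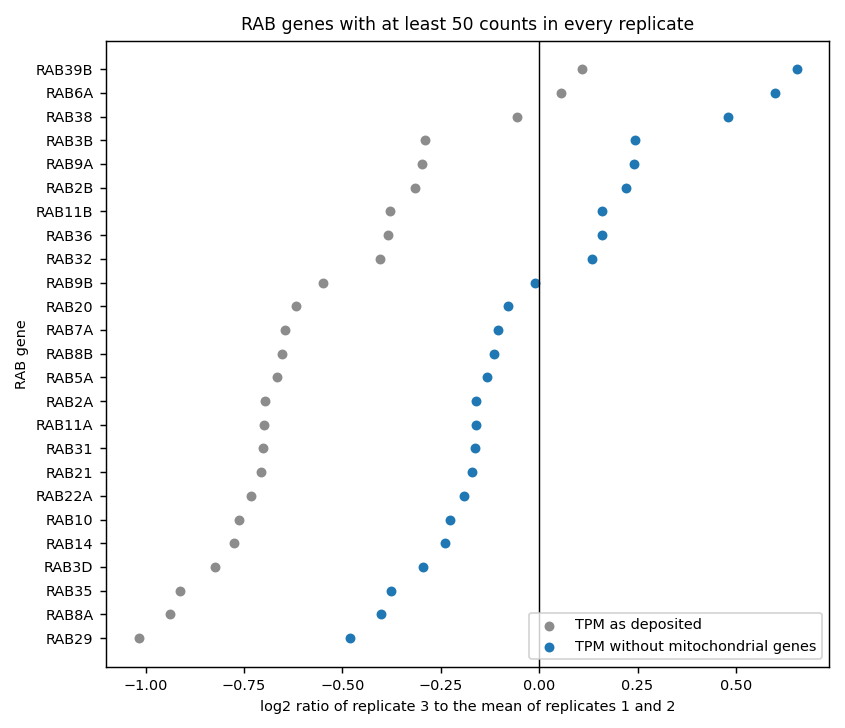
log2 ratio of replicate 3 to the mean of replicates 1 and 2 for the 25 RAB genes whose count was 50 or more in all replicates, in TPM and in TPM without mitochondrial genes. In TPM 23 genes lie below 0, and without mitochondrial genes the ratios run from -0.48 for RAB29 to 0.65 for RAB39B.

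The genes that serve the RAB cycle were measured alongside. Of 10 genes of escort, prenylation and GDP dissociation inhibition, 7 were expressed (70%, where 38.2% of protein-coding genes were), with a median of 15.3 TPM. The highest were PRAF2, a prenylated RAB acceptor, at 149 ± 27.6 TPM (SD, n = 3), RABGGTB, the catalytic subunit of the geranylgeranyl transferase, at 69.1 ± 13.1, and RABIF, a chaperone of nucleotide-free RABs, at 61.6 ± 15.8. RABGGTA, the other subunit of that transferase, had no counts, and none of its last 300 bases are single. In CPM the first was CHML, an escort protein, at 307, ahead of RABIF at 128 and PRAF2 at 125.

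Of 51 exchange factors 30 were expressed (58.8%), with a median of 2.54 TPM. HPS1, of the complex that activates RAB32 and RAB38, was the highest at 289 ± 79.8 TPM, followed by RAB3GAP2, of the complex that activates RAB18, at 101 ± 25.6 and MON1B, of the complex that activates RAB7, at 55.0 ± 15.3. In CPM, RAB3GAP2 was first at 474, and HPS1 was at rank 3 with 177. Of 34 GTPase-activating proteins 22 were expressed (64.7%), with a median of 6.92 TPM, led by TBC1D9B at 80.6 ± 32.5, RABGAP1 at 65.6 ± 18.9 and SGSM1 at 45.1 ± 16.2 TPM. In CPM, RABGAP1 was first at 216, while TBC1D9B was at rank 11 and SGSM1 at rank 16. Of 46 effectors 24 were expressed (52.2%), with a median of 1.50 TPM. RABEP1, which binds RAB5, led them at 116 ± 17.6, followed by APPL1, another RAB5 effector, at 83.8 ± 20.5 and GCC1, a golgin, at 73.9 ± 29.5 TPM. In CPM, APPL1 was first at 322 and RABEP1 at rank 7.

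Of 10 RAB-like genes 4 were expressed (40%), with CRACR2A at 38.0 ± 6.25, RASEF at 37.1 ± 7.14 and RABL2A at 8.19 ± 1.24 TPM. Counted without length, RASEF was first at 139 CPM, ahead of CRACR2A at 35.3 CPM. RAN, the abundant GTPase of nuclear transport, was at 0 counts in every replicate, and 0.667% of its end was single. In other small GTPase families the expressed genes numbered 13 of 28 in the ARF family (46.4%) and 15 of 34 in the RAS family (44.1%). ARF6 led the former at 221 ± 63.6 TPM and NRAS the latter at 236 ± 55.2, and both overlapped RAB7A. Within each replicate, RAB7A was above both in TPM. By counts the order was the reverse, with NRAS at 680 and ARF6 at 569 CPM against 425 CPM for RAB7A. The place of RAB7A above these genes therefore rests on the division by length.

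As the study concerns C-rich and G-rich promoters, the promoter windows of the members were searched for tracts. RefSeq windows of 250 bases before and 50 after the start (GRCh38.p14) were matched for 50 of 63 members. A match was 4 tracts of at least 3 C, or of at least 3 G, with loops of 0 to 7 bases, read on the strand of the gene, so that C tracts and G tracts stand for the opposite strands. The following stretches of 30 bases, with the matched run in capitals, come from expressed members of the high group, above 24.1 TPM.

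RAB10, C tracts, chr2:26033910-26033939, plus strand: cgCCCTTTCTCGCCCCTCCCTTCTCCCCtc
RAB10, G tracts, chr2:26034042-26034071, plus strand: ggctaGGGCGTGAGGGAAGGGCGGGcgtac
RAB5A, G tracts, chr3:19947016-19947045, plus strand: aggcGGGGAGGGATTCGGGAAGGGGcgagg
RAB9A, C tracts, chrX:13689084-13689113, plus strand: ggCCCCGCCCCGCTTTTTCCCTGGCCCCgc
RAB35, G tracts, chr12:120116827-120116856, minus strand: tggtGGGGCGGGGCGGGAAGGAGGGaggcg
RAB2B, G tracts, chr14:21476965-21476994, minus strand: gaGGGGCGGGGGAGCGGGGGGAAGGGGGag

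A match was found in 15 of the 50 members (30%), against 32.7% of 15334 promoters of protein-coding genes, a share near the background. C tracts occurred in 9 and G tracts in 11, with RAB10 among the 5 that held both. Of the 15 members with a match 8 were expressed, and of the 35 without one 20 were. Median levels were 1.14 TPM with a match and 3.12 TPM without, a difference that was not tested. The window of RAB18 held no match, which says only that these letters are not in it. The median GC content was 65% in the members and 63% over all promoters.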

How the data were processed

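RNA-seq of 3 HEK293T replicates was analysed, with groups taken from the sample titles. Per the submitters' processing notes, reads were handled with Trimmomatic (0.38.0), HISAT2 (2.2.1) and featureCounts (listed as 2.2.1) on hg38. How reads on several transcripts or on either strand were counted is not given in the sources used here. The labels give genomic DNA as the material, whereas the methods of the study describe total RNA. The authors deposited whole, unnormalized counts per transcript, the transcript length in bases, and TPM made from these counts and lengths. Totals of 6262175 to 8521624 counts per library set the precision.

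Of 247541 transcripts, 223558 matched GENCODE v44 without version, and counts and TPM were summed per gene. Thresholds were a mean of 1 TPM for expressed, 3 counts for detection, 300 bases for the 3′ end and 50% of it in a single listed transcript. Low and high are the quartiles of all expressed genes. Values are mean ± SD over 3 replicates, a logarithm used a pseudocount of 1, and no test was made. The rule for named genes was full values for the 10 highest members by mean TPM, RAB18, every paralog family and the 3 most variable members with a mean count of at least 20, and of each gene list the 3 highest and RAN. The members and lists were chosen with earlier results of these data known, and RAB23, BAG2 and other genes named for overlap or copies were named after their values were seen. Scripts were tested on simulated data. Alternatives were other thresholds, CPM (counts per 1000000), no mitochondrial genes, other windows, another pseudocount, other tract rules and each replicate left out. Protein features were planned and are not analysed here. A further list of small GTPases is not reported here. The work used scipy 1.17.1, pandas 2.3.3, numpy 2.4.6, matplotlib 3.10.9 and Python 3.11.15.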

Additional observations from a re-analysis of the deposited data

How the results depend on the processing

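No comparison of groups, paired or not, was possible because a single condition was sampled. Of 54 recomputed values, 46 stayed within the spread of the replicates or within 1.5 times the count, and 8 moved. The median of the members was 3.71 CPM and 19.1 TPM over members with a mean count of at least 10 only. The sum was 5021 CPM, and 3316 TPM without mitochondrial genes. The mean Pearson coefficient between replicates was 0.983 with a pseudocount of 0.1. Members with tracts were 49 with 4 tracts of at least 2 (98% against 91.4% of protein-coding promoters) and 6 with 5 tracts of at least 3 (12% against 17.9%). A count of 0 in every replicate, an alternative chosen after seeing the data, left 15 members in place of 23. Counting transcripts of either strand at the 3′ end, also chosen after seeing the data, gave 34 members with a single end, 28 of them expressed.

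With each replicate left out in turn, expressed members numbered 33 to 34, members at or under 3 counts 23 to 25, the median was 1.14 to 2.39 TPM, the sum 2183 to 2729 TPM and the share of the 5 highest 43.6% to 44.3%. The median was 1.14 TPM without replicate 2. The same 10 members stayed the highest, and the highest paralog by mean TPM was the same in all 14 families, RAB1 and RAB33 with too few counts for an order among them. At this depth, members with few counts, such as RAB18 and RAB28, have no firm level, and TPM of a gene counted on a short transcript depends on that length.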
